A study of Mus musculus with 2 samples.

Results

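DNase-seq was run on spleen tissue from B6CASTF1/J mice, males aged 14 days from a first-generation cross of 2 inbred strains, to find open chromatin. The sites described here are the peaks that lie inside introns, over 1 kb and up to 10 kb from the nearest annotated transcription start. They were chosen by position alone, on mm10 with the GENCODE M21 annotation of all gene types: the nearer edge of the peak set the distance, the peak had to lie inside a gene, and it could touch no exon. Below they are called near intronic peaks. There were 7371 of them among 48286 peaks in replicate 1 (15.3%) and 3008 among 28837 in replicate 2 (10.4%). The design held 1 group with 2 libraries and no second genotype, treatment or age. Replicate 1 pooled 3 males and replicate 2 came from a single animal (1 male), although the labels give them 1 donor entry. With no second group no difference between groups can be tested, so values are given for each library or as mean ± SD (n = 2). In whole tissue, fewer cells of a type and less open chromatin per cell cannot be told apart.

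DNase I cuts DNA where no nucleosome covers it, so a pile of cut ends marks a site held open by bound proteins. Promoters give the strongest such sites. Enhancers and silencers open more weakly and in fewer cell types, while many sites of the insulator protein CTCF are open in most cell types. Many of these elements lie in introns, often the first intron of the gene they regulate or of a neighbour. The spleen of young mice holds B cells, T cells, macrophages and stroma, and in the mouse it also makes red cells and megakaryocytes. In red cell precursors the factor GATA1 binds AGATAA-like letters, often beside an E-box bound by TAL1. PU.1, RUNX and OCT factors act widely in white blood cells. A footprint is a short protected stretch inside an open site, taken as the mark of a bound protein.

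Sequences are shown first for the strongest near intronic sites called in both libraries that hold the letters of a given factor, each site printed whole as read from the mm10 reference. The signal is the authors' peak height in their own unit, on an unstated scale, and is given as replicate 1 and then replicate 2. Capitals mark the letters searched, on either strand. A match is a description of letters, not evidence of binding. The Cbx7 site (chr15:79927721-79927920, plus strand, intron 2, 4596 bases from the start of this Polycomb subunit gene, signal 19.1 and 11.8) holds the GATA letters AGATAA. Among all peaks, the middle 150 bases held these letters in 6.59% and 3.86%. The Dmtn site (chr14:70623961-70624160, plus strand, intron 1, signal 8.84 and 3.70) holds the composite of an E-box part and GATA, which is CTG, then 7 or 8 bases of any kind, then AGATAA. Dmtn encodes dematin, a protein of the red cell membrane skeleton. The composite stood in 1.21% and 0.586% of all peaks.
Cbx7: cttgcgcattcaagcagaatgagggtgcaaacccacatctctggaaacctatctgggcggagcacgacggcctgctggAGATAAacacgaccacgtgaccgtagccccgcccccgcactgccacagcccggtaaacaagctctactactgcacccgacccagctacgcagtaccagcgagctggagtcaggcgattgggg
Dmtn: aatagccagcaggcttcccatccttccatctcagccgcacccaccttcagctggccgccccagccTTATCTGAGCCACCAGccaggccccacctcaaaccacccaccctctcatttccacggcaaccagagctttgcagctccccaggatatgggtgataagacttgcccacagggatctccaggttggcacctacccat

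The next sites carry letters of factors common in white blood cells. The Il31ra site (chr13:112578161-112578320, plus strand, intron 1, signal 22.9 and 23.0) is the strongest near intronic site called in both libraries, in the gene of an interleukin 31 receptor subunit, and holds the RUNX letters TGTGGT, found in 12.2% and 9.00% of all peaks. The site that holds the PU.1 letters GAGGAAGT (3.61% and 1.93% of all peaks) lies in an intron of the very long annotation Gm20388 (chr8:122830501-122830700, plus strand, signal 7.81 and 7.68). The ETS letters CCGGAAGT (2.24% and 3.18% of all peaks) stand in a site of Lrrc25, a leucine-rich repeat protein gene of myeloid cells (chr8:70619001-70619220, plus strand, intron 2, signal 7.47 and 4.14). The OCT letters ATGCAAAT (1.23% and 0.683% of all peaks) stand in Sertad2, a transcription coregulator gene (chr11:20638941-20639120, plus strand, intron 1, signal 3.82 and 4.16).
Il31ra: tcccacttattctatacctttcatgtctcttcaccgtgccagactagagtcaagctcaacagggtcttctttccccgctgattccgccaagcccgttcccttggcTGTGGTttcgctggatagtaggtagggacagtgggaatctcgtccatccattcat
Gm20388 intron: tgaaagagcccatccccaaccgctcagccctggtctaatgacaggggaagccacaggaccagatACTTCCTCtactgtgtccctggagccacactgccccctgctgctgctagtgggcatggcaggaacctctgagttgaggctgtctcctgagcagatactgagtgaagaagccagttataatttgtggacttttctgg
Lrrc25: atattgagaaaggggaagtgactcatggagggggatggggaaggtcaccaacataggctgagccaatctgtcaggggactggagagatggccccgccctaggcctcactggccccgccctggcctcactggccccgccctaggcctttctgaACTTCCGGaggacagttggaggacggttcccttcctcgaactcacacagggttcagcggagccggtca
Sertad2: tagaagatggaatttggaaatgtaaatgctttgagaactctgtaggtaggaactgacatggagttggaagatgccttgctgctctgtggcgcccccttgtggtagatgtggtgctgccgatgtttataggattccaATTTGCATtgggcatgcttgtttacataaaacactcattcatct

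CTCF and AP-1 act in most cell types. The CTCF letters CCNCNAGNNGGC, where N is any base, were present in 8.76% and 9.79% of all peaks. Their strongest near intronic example lies in an intron of Agrp (chr8:105622481-105622680, plus strand, signal 13.6 and 8.77), a neuropeptide gene, at 7015 bases from the start of the microRNA gene Mir1966. The AP-1 letters TGANTCA (4.06% and 2.91% of all peaks) stand in the first intron of Ccnd3, the cyclin D3 gene (chr17:47511201-47511440, plus strand, signal 17.9 and 11.9).
Agrp: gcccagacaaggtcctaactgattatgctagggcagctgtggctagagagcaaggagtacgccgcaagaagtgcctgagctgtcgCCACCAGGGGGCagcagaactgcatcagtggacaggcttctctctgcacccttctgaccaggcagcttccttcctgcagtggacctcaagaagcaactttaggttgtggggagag
Ccnd3: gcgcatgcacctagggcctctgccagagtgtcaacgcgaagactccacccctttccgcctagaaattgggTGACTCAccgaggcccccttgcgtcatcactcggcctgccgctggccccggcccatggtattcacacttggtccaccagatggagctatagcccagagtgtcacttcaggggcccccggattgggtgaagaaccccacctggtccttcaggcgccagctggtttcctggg

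The last set shows sites in genes of red cells and B cells, with every match of the 18 letter patterns searched in capitals. Mxi1, whose product opposes MYC through MAX, held the strongest near intronic site of the red cell list (chr19:53314221-53314420, plus strand, signal 20.6 and 13.2), with the cAMP response letters TGACGTCA (1.17% and 1.65% of all peaks), the GC box GGGCGG (26.9% and 36.9%) and the E-box CAGCTG (13.3% and 10.6%). Pou2f2, the OCT2 factor of B cells, held that of the B cell list (chr7:25105921-25106100, plus strand, signal 5.20 and 3.51), with 1 match, to CAGCTG. Alas2, the first enzyme of heme synthesis in red cells, Gata1, E2f2 and Pax5 were added after their values were seen. The Alas2 site (chrX:150549701-150549960, plus strand, intron 1, signal 3.15 and 1.06) carries the E-box and GATA composite on the minus strand and the STAT letters TTCNNNGAA (3.31% and 2.89% of all peaks), and the Gata1 site (chrX:7971401-7971620, plus strand, intron 3, signal 4.11 and 1.81) carries CAGCTG close to AGATAA. The E2f2 site (chr4:136178001-136178200, plus strand, signal 15 and 7.41) lies in the gene of a cell cycle factor that acts in red cell maturation, and holds CAGCTG, the GC box, the CACCC box CCACACCC (3.12% and 2.57% of all peaks) and the EBF letters CCCNNGGG (9.72% and 10.3%). The Pax5 site (chr4:44706081-44706260, plus strand, signal 4.92 and 2.35) lies in the gene of the factor that keeps B cell identity, and holds CAGCTG and TGTGGT.
Mxi1: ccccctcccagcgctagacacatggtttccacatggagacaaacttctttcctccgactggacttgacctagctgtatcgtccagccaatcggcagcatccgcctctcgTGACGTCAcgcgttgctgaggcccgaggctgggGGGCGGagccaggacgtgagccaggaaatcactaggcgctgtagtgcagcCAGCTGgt
Pou2f2: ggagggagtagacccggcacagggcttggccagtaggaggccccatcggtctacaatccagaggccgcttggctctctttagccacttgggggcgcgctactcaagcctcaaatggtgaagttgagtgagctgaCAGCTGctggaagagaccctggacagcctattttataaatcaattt
Alas2: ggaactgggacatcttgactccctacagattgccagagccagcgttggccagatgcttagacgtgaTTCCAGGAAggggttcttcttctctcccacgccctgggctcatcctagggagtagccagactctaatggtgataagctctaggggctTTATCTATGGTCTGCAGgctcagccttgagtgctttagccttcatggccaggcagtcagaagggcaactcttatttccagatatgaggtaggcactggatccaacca
Gata1: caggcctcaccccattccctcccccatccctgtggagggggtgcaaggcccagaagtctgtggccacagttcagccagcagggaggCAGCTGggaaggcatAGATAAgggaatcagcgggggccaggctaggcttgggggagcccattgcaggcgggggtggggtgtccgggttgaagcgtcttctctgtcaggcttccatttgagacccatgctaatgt
E2f2: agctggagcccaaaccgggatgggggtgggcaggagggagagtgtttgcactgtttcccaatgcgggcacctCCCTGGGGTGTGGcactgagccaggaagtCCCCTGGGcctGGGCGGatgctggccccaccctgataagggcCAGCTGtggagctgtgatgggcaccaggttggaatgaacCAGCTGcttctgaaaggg
Pax5: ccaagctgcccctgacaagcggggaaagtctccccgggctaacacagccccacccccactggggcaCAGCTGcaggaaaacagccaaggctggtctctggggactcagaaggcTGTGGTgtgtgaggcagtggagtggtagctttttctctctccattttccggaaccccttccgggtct

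Before the results, the libraries differed in yield. Replicate 1 had 1.67 times the peaks of replicate 2 and 2.45 times the near intronic peaks, and the read depth is unknown here. Peaks at annotated starts (within 1 kb) were 46.9% of replicate 1 and 60.9% of replicate 2. Intergenic peaks within 50 kb of a gene were 21.4% and 17.7%, and far intronic peaks (over 10 kb from a start) 10.4% and 5.98%. Exonic peaks away from starts were 4.82% and 4.25%. The near intronic share was 12.8% ± 3.42 (SD, n = 2). As a check of the tissue label, promoters open in both libraries made up 54.2% of protein-coding genes with eligible introns. They numbered 43 of 46 for red cell genes, 25 of 34 for B cell genes, 10 of 24 for macrophage and dendritic genes and 7 of 24 for T cell genes, and 4 of 25 for endothelial and stromal, 3 of 11 for muscle, 2 of 12 for neuron and 0 of 12 for hepatocyte genes.

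Near intronic peaks were most frequent close to the start and thinned out with distance. The intronic bases that could hold one came to 420.5 Mb, with 17.5 peaks per Mb in replicate 1 and 7.15 in replicate 2. Far introns held 8.43 and 2.90 per Mb, and the 1 kb around starts 141 and 110. Between 1 and 2 kb from a start the density was 24.9 per Mb in replicate 1 and 10.7 in replicate 2. Between 9 and 10 kb it was 12.8 and 4.79, still above the density in far introns in both libraries. The ratio of the first to the last of these bins was 1.95 in replicate 1 and 2.24 in replicate 2 (2.09 ± 0.203, SD, n = 2). Signal did not follow this slope: the median ran from 1.11 to 1.28 over the 9 bins in replicate 1 and from 1.28 to 1.37 in replicate 2. The share with a footprint was between 90.2% and 95.0% over the bins of replicate 1 and between 87.1% and 92.4% over those of replicate 2.

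**Figure D1:**
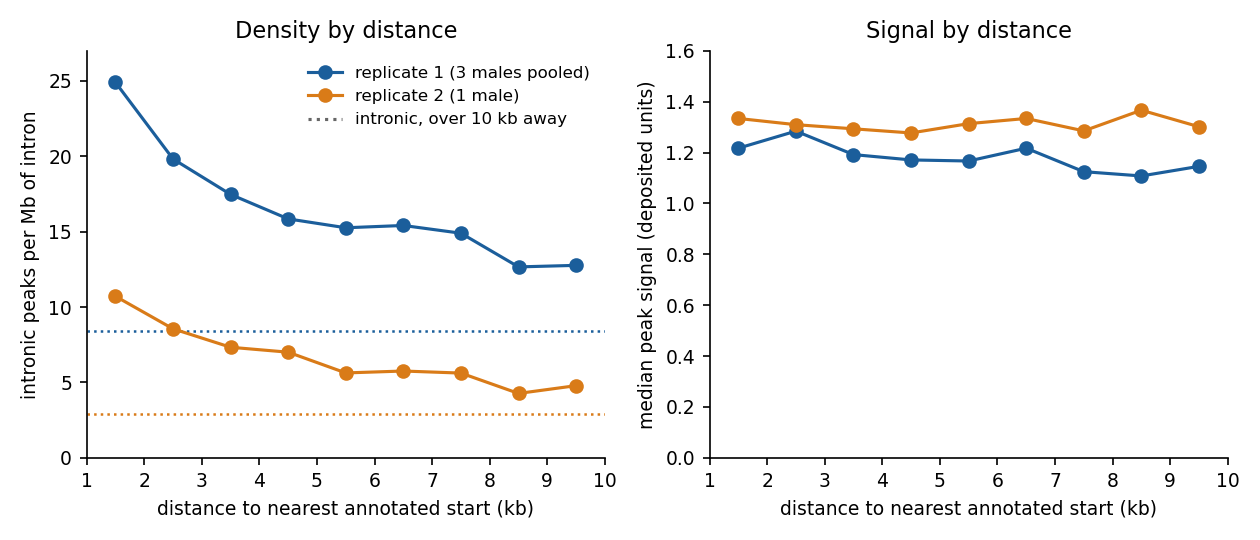
Left, near intronic peaks per Mb of intron (y axis) in bins of 1 kb by distance to the nearest annotated start (x axis, kb), with dotted lines for introns over 10 kb away. Right, median peak signal in the authors' unit for the same bins. Points are single libraries, blue for replicate 1 and orange for replicate 2, with no error bars; density runs from 24.9 to 12.8 per Mb and from 10.7 to 4.79, while median signal stays between 1.11 and 1.37.

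First introns held 4346 near intronic peaks of replicate 1 (59.0%) and 1744 of replicate 2 (58.0%), a mean of 58.5% ± 0.694 (SD, n = 2). First introns made up 51.5% of the bases that could hold one. The density was 20.1 per Mb in first introns and 14.8 in later ones in replicate 1, and 8.05 and 6.20 in replicate 2. In absolute terms the gap was widest next to the start. Between 1 and 2 kb replicate 1 had 28.0 per Mb in first introns and 19.8 in later ones, and replicate 2 had 12.1 and 8.35. Between 9 and 10 kb the values were still 14.4 and 11.5 in replicate 1. From 5 kb outwards replicate 2 showed no steady gap. Its bins had 5.49, 5.81, 5.49, 4.22 and 5.09 per Mb in first introns. In later introns they had 5.76, 5.71, 5.73, 4.32 and 4.55. Further than 10 kb out, 36.7% and 33.4% of intronic peaks lay in first introns, which made up 35.4% of those bases. Direction made little difference. Of the near intronic peaks, 61.0% in replicate 1 and 61.5% in replicate 2 lay downstream of the nearest start, against 60.5% of the bases. The nearest start belonged to a gene around the peak in 76.3% and 77.0%, and otherwise to a gene that did not contain the peak. A protein-coding gene surrounded 88.7% and 86.8%, and 7.96% and 8.24% lay in more than 1 gene. On the X chromosome the density was 9.50 and 4.17 per Mb, against 17.9 and 7.30 on the autosomes. No such density over all peaks is given here, and the cause of the gap was not tested.

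Near intronic peaks were weaker and narrower than peaks at starts. Their median signal was 1.2 in replicate 1 and 1.31 in replicate 2 (1.25 ± 0.0772, SD, n = 2), against 2.63 and 2.67 at starts, 1.00 and 1.16 in far introns and 1.19 and 1.33 between genes within 50 kb. The lower quartile was 0.823 and 0.943, the upper 1.91 and 1.94, and the highest 27.7 and 23.0. Median width was 180 and 160 bases, against 200 at starts in both libraries. Where the gene around a near intronic peak also had a promoter peak, the near intronic peak reached a median of 0.214 of the promoter signal in replicate 1 and 0.331 in replicate 2. It was the stronger of the pair in 10.02% and 13.1% of such cases. Protein-coding genes that held a near intronic peak had a promoter peak in 83.1% and 76.7% of cases, against 60.1% and 54.5% of all protein-coding genes with bases that could hold one.

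In base composition they differed from start sites and from introns at large, and were close to far intronic peaks. Median GC content was 52.8% and 54.6%, against 52.5% and 54.3% in far intronic peaks, 63.1% and 65.5% at starts and 43.0% over all intronic bases at this distance. CpG pairs, the target of DNA methylation in mammals, were at 0.230 and 0.248 of the number expected from base composition (median). At starts, where CpG islands lie, the ratio was 0.746 and 0.810, and in far intronic peaks 0.230 and 0.249. Repeats (soft-masked letters) made up 11.9% and 11.6% of near intronic peak bases and 30.04% of the bases that could hold such peaks. Repeats filled at least 50% of the peak in 6.35% and 7.01%, against 1.38% and 0.859% of start-site peaks. The shares were 5.15% and 5.51% in far intronic peaks and 6.39% and 7.37% in intergenic peaks within 50 kb. A deposited footprint lay in 93.0% and 90.4% of near intronic peaks (91.7% ± 1.85, SD, n = 2), with a mean of 2.45 and 2.43 per peak. At starts 85.1% and 87.0% had one, with a mean of 3.29 and 3.36. The share was not particular to near intronic peaks. It was 93.4% and 92.1% in far intronic peaks and 94.0% and 90.8% in intergenic peaks within 50 kb.

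The share of near intronic peaks called in the other library differed between the libraries, and so did the number of peaks per library. A peak of replicate 2 overlapped 2515 of the 7371 (34.1%), and 53.1% of all peaks of replicate 1. In the other direction 2556 of the 3008 near intronic peaks of replicate 2 were called in replicate 1 (85.0%), against 89.1% of all its peaks. With both libraries limited to the number of peaks of replicate 2, taking the strongest, the near intronic shares were 56.5% in replicate 1 and 70.2% in replicate 2. Against the larger deposited list of the other library the shares were 57.1% and 86.7%. Shares over all peaks at these settings are not given here. Signal closely accompanied whether a peak was called in the other library. Near intronic peaks of replicate 1 that were also called in replicate 2 had a median signal of 2.16, and those called there alone 0.982. In replicate 1, between signals of 1 and 2, 31.4% of near intronic peaks were called in replicate 2, against 36.4% of far intronic and 55.2% of start-site peaks in the same signal range. In replicate 2 start-site peaks had the lowest share of these classes, with 97.7% of near intronic, 98.4% of far intronic and 92.1% of start-site peaks in that range called in replicate 1. At a signal of 4 or more, 413 of 420 near intronic peaks of replicate 1 (98.3%) and all 148 of replicate 2 were called in both, close to the 99.3% and 99.5% of all peaks.

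**Figure D2:**
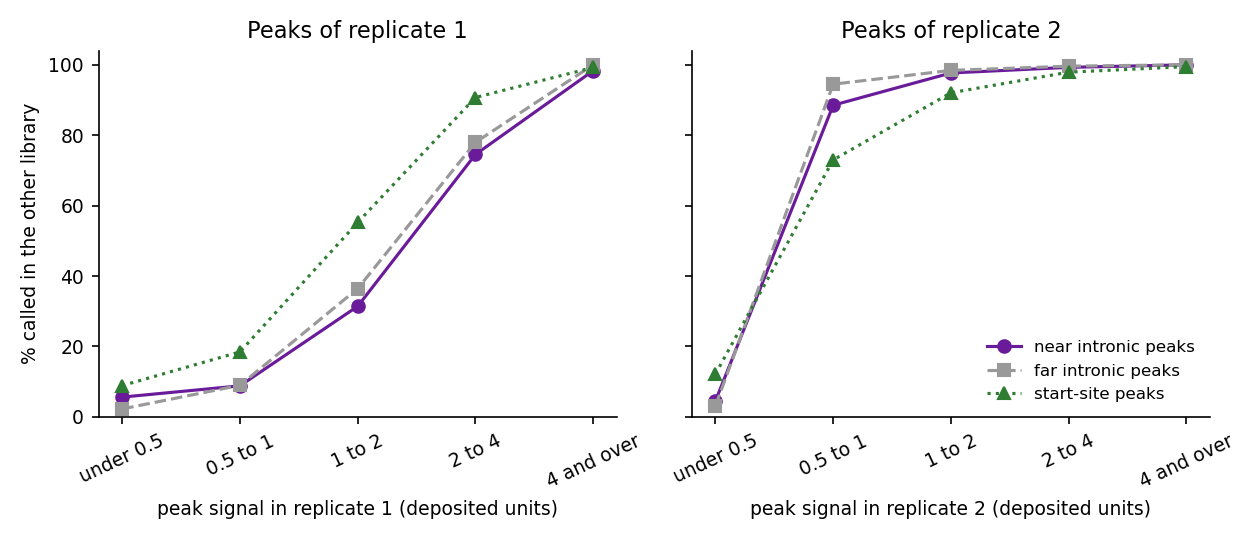
Share of peaks called in the other library (y axis, %) by peak signal (x axis, the authors' unit, 5 ranges), left for peaks of replicate 1 and right for peaks of replicate 2. Purple circles are near intronic peaks, grey squares far intronic peaks and green triangles start-site peaks; at a signal between 1 and 2 the near intronic share is 31.4% in replicate 1 and 97.7% in replicate 2.

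Replicate 2 held a larger share of very weak near intronic peaks than replicate 1. With a signal limit of 0.4, chosen after the values were seen, 341 of its 3008 near intronic peaks were weaker (11.3%), against 60 of 7371 in replicate 1 (0.814%). Over all peaks the shares were 5.64% and 0.973%. The 452 near intronic peaks of replicate 2 with no overlapping peak in replicate 1 had a median signal of 0.268, and 50.7% of them held a footprint, against 97.5% of those called in both. Many stood close together: 176 of the 3008 lay in 25 runs of at least 5 near intronic peaks spaced by at most 2 kb. Of those in runs 4.55% were called in replicate 1, and of the others 90.0%.

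At 2498 sites, a near intronic peak of each library matched the other as best overlap, and these shared sites carried the comparison of signal. The rule that a site must be called in both libraries decides which sites enter it. Signal was higher in replicate 1 at 79.8% of them, with a median log2 ratio of 0.42. Over shared peaks of every class the median was 0.58 and at start sites 0.65. The Pearson correlation of log2 signal over the 2498 sites was 0.787 and the Spearman correlation 0.746. The sites share their 2 libraries, and the correlation only describes them. The signal was over 2-fold higher in replicate 1 at 518 sites (20.7%), against 15.9% of all shared peaks, and over 2-fold higher in replicate 2 at 5 sites (0.20%), against 0.0711% of all shared peaks. These ratios assume that the signal is scaled alike in both libraries, for which no source was at hand.

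The strongest shared sites were mostly in first introns and rich in GC. Of the 10 strongest, 9 lay in a first intron, 7 had a GC content over 60%, 8 held no repeat base and 9 were higher in replicate 1. The site of Il31ra shown above was about equal in both libraries, at 22.9 and 23.0. The site of the long annotation Gm20388 (chr8:121585461-121585720), 3696 bases from the start of Gm17786, had 27.7 and 15.3. Mxi1 followed with 20.6 and 13.2, and then the long non-coding RNA gene Gm26745 with 23.1 and 10.5 (chr5:123057981-123058040). Among genes of growth control, Cbx7 had 19.1 and 11.8, Ccnd3 17.9 and 11.9, and Mnt, which like Mxi1 encodes a MAX partner that opposes MYC, 17.0 and 10.2 (chr11:74832221-74832400). The antisense gene A930015D03Rik had 21.7 and 8.98 (chr17:35997061-35997240), the largest ratio of the 10 (log2 1.27). Myo18a, an unconventional myosin gene, had 16.0 and 10.5 (chr11:77793301-77793480). Vsir, which encodes the immune checkpoint protein VISTA and lies within Cdh23, had 13.4 and 11.3 (chr10:60350901-60351080).

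The 2498 shared sites were split by mean signal into 4 bins of 624 or 625, and the weakest and strongest bins differed in several properties. First introns held 54.2% of the weakest bin and 64.2% of the strongest. Median GC content ran from 53.0% to 56.0%, and the mean number of footprints in replicate 1 from 2.46 to 3.79. Peaks that were at least 50% repeat ran from 11.1% to 3.04%. The GATA letters stood in 4.97% of the weakest bin and 10.1% of the strongest, and the GC box in 9.29% and 20.8%. The CTCF letters stood in 17.8% and 16.3%, with no such slope.

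The letters of 18 factor patterns were counted in the middle 150 bases of each near intronic peak and in windows of the same length 1 kb to either side. Matches were counted on both strands, and the composite of E-box part and GATA is also counted as GATA. GC content was higher in the peak windows (medians of 52.7% and 54.7%) than in the flanks (46.7% and 47.3%), and the shares are not adjusted for it. The CTCF letters stood in 744 near intronic peaks of replicate 1 (10.1%) and 458 of replicate 2 (15.2%), against 0.235% and 0.286% of the flanks. Of the CTCF matches, 91.8% and 95.5% had at least 50% of their bases in a deposited footprint, while footprints covered 27.4% and 31.2% of the bases of the same peaks. The E-box and GATA composite stood in 2.06% and 1.16%, against 0.235% and 0.167% of the flanks. PU.1 letters stood in 4.75% and 2.46%, against 0.831% and 0.811%. AGATAA by itself stood in 10.3% and 6.98%, against 7.02% and 6.77% of the flanks and 3.45% and 2.32% of start-site peaks, so in replicate 2 its share was close to that of the flanks. Matches of AGATAA lay in footprints in 24.3% and 18.7% of cases, where footprints covered 17.4% and 19.8% of the bases of the same peaks.

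Some further patterns differed in share between near intronic and start-site peaks, and others are set beside the flanks. The GC box, bound by SP and KLF factors, stood in 10.5% and 12.6% of near intronic peaks and in 45.2% and 52.1% of start-site peaks. The ETS letters stood in 0.516% and 0.465%, against 4.04% and 4.89% at starts, and the NRF1 letters (GCGC, any base, TGCGC) in 0.298% and 0.465%, against 5.55% and 7.09%, with 2.85% and 4.65% of all peaks. The cAMP response letters stood in 0.380% and 0.499%, and in 2.04% and 2.38% at starts. The E-box CAGCTG was in 15.8% and 13.8% of near intronic peaks (7.44% and 7.89% of flanks) and the E-box CAGGTG in 17.1% and 19.3% (11.6% of flanks for both libraries, 14.7% and 13.96% of all peaks). The EBF letters, of a B cell factor, stood in 8.33% and 8.14% (flanks 3.72% and 4.20%). Their share was higher in all peaks (9.72% and 10.3%) and in start-site peaks (11.9% and 12.3%). The CACCC box of red cell KLF factors stood in 4.35% and 3.66% (flanks 1.49% and 1.50%), and in far intronic peaks in 3.93% and 3.65%. RUNX letters were in 16.8% and 14.4% (13.0% and 12.9%), AP-1 letters in 5.54% and 4.99% (4.38% and 4.53%) and OCT letters in 1.53% and 0.665% (0.741% and 0.620%). The IRF letters GAAANNGAAA stood in 1.80% and 1.03%, against 2.01% and 1.98% of the flanks and 1.53% and 0.995% of all peaks. STAT letters stood in 3.54% and 3.29%, against 4.28% and 4.05% of the flanks. The YY1 letters AAGATGGC stood in 1.03% of near intronic peaks of both libraries, against 0.985% and 1.12% of the flanks and 1.62% and 2.09% of all peaks. In far introns AGATAA stood in 10.7% and 8.58% and the CTCF letters in 10.7% and 15.8%. The composite stood there in 2.14% and 2.03%, and the ETS letters in 0.479% and 0.232%.

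**Figure D3:**
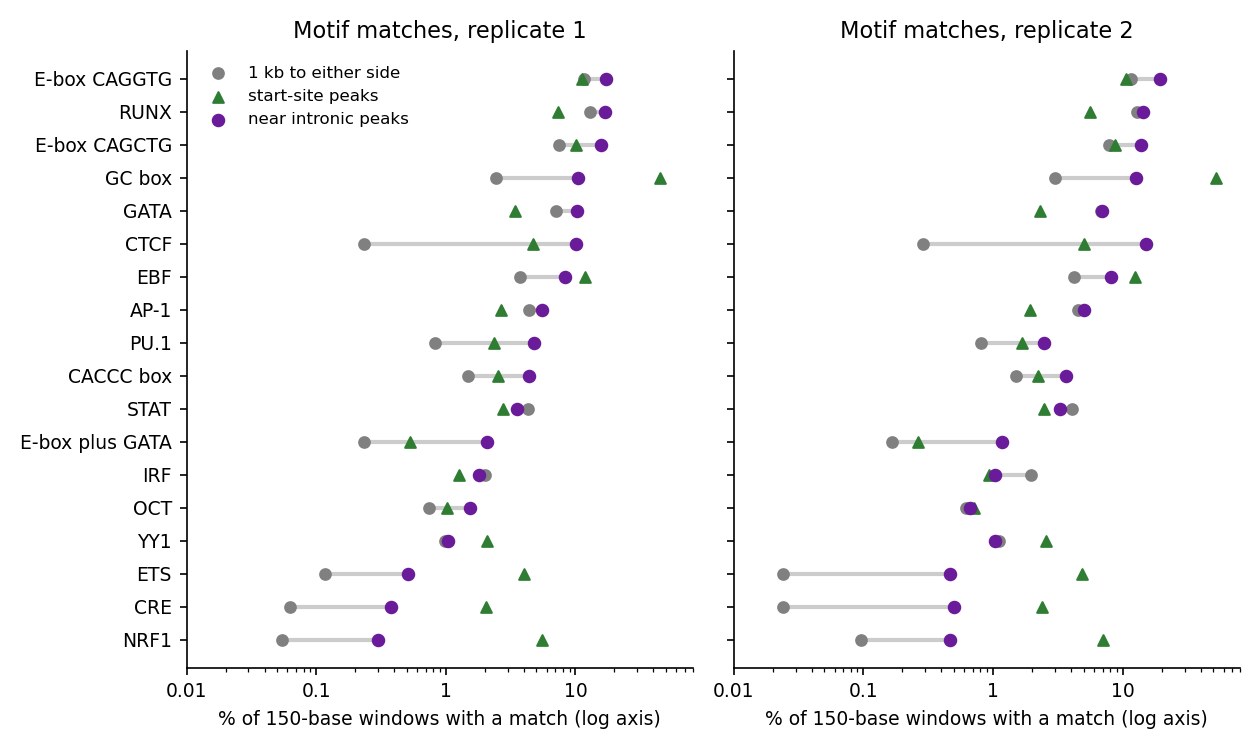
Share of 150-base windows with a match (x axis, %, log axis) for 18 letter patterns (y axis), left for replicate 1 and right for replicate 2. Purple circles are near intronic peaks, grey circles the windows 1 kb to either side and green triangles start-site peaks; the CTCF pattern runs from 0.235% to 10.1% and from 0.286% to 15.2%.

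Sites with GATA and CTCF letters differed in how the libraries compared. At the 199 shared near intronic sites with AGATAA the log2 ratio (replicate 1 over replicate 2) had a median of 1.04, against 0.38 at the others, and 93.0% were higher in replicate 1. At the 36 sites with the composite it was 1.33. At the 442 sites with CTCF letters it was 0.21, against 0.49 at the others, and 73.1% were higher in replicate 1. PU.1 letters (76 sites, 0.87), OCT letters (20 sites, 0.88) and the CACCC box (96 sites, 0.86) lay between, and RUNX letters (375 sites, 0.40) near the median of all shared sites. Calling also differed between patterns, mainly in replicate 1. There, 59.5% of near intronic peaks with CTCF letters were also called in replicate 2, compared with 26.1% with AGATAA and 21.7% with PU.1 letters. The share was 34.1% of all near intronic peaks of replicate 1 and 53.1% of all its peaks. In replicate 2 the shares for these patterns were 98.3%, 93.8% and 93.2%. They were 85.0% for all its near intronic peaks and 89.1% for all its peaks. The 40 shared sites in genes of the red cell list, of which 10 held AGATAA, had a median log2 ratio of 0.97, and the 13 in genes of the B cell list, of which 0 did, had 1.07. The part of cell makeup, depth and pooling in this was not tested.

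**Figure D4:**
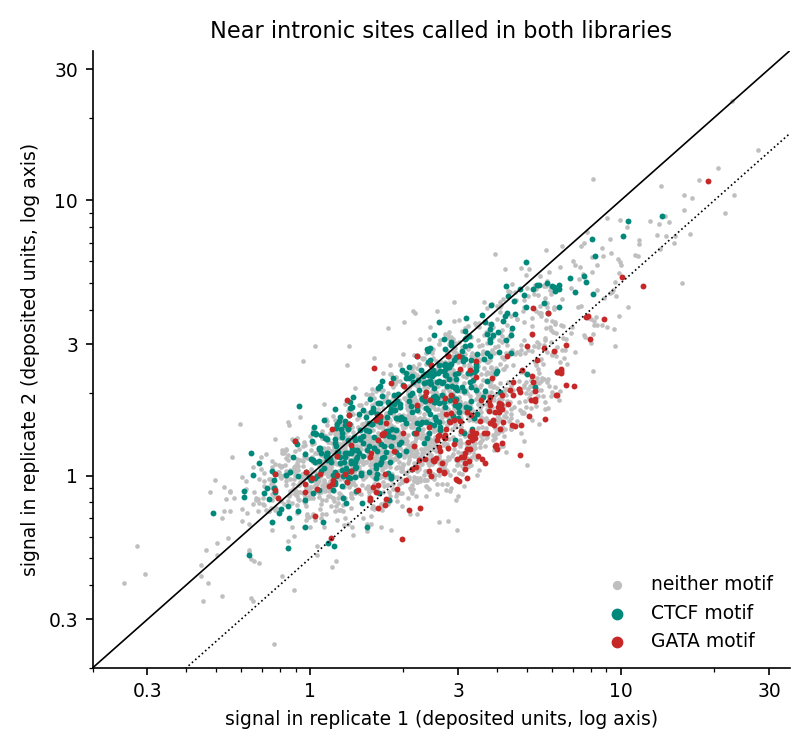
Signal at the 2498 shared near intronic sites in replicate 1 (x axis) and replicate 2 (y axis), in the authors' unit on log axes, with 1 point per site. Red points hold the GATA letters, green points the CTCF letters and grey points neither; the solid line marks equal signal and the dotted line a 2-fold excess in replicate 1. Red points sit further towards replicate 1 (median log2 ratio 1.04) than green ones (0.21).

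Of the 11 gene lists examined, that of red cell genes had the highest share with a near intronic site. Of all 19252 protein-coding genes with bases that could hold one, 8.98% held a near intronic site called in both libraries. In the red cell list it was 22 of 46 (47.8%), with 40 sites in all. These genes had more room for sites (a median of 14.8 kb, against 9.04 kb for all) and were more often open at the promoter in both libraries (93.5%, against 54.2%). Among genes with such a promoter the shares were 21 of 43 (48.8%) in the red cell list and 12.7% of all. Of the 40 sites, 25% held AGATAA, 0 held CTCF letters and 75% lay in a first intron, while among all shared near intronic sites the shares were 7.97%, 17.7% and 58.6%.

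The sites of the red cell list lay in genes of several roles. Mxi1 held 3 shared sites and E2f2 held 5, led by the sites shown above. Zfpm1, whose product FOG1 is the partner of GATA1, held 3, the strongest at 7.74 and 3.78 with AGATAA, beside a promoter at 28.6 and 17.7. Genes of the membrane skeleton were Sptb, beta spectrin (9.86 and 5.44, above its promoter at 8.52 and 4.41), and Ank1, erythroid ankyrin, with 4 sites (strongest 5.89 and 5.49). The blood group gene Rhd had 6.09 and 2.80, above its promoter at 4.16 and 2.27. Of the heme enzymes, Alad had 5.65 and 2.24, and the Alas2 site at 3.15 and 1.06 stood beside a promoter at 0.839 in replicate 1 and no promoter peak in replicate 2. Tspan33, a tetraspanin gene of red cell precursors, had 6.25 and 2.38. These genes, apart from Mxi1 and E2f2, were chosen after their values were seen. Another 5 genes of the list had a near intronic peak in replicate 1 alone, among them Fech, the last heme enzyme, at 2.70. For 19 genes neither library called one, among them Klf1, Tal1, Nfe2 and Epor, all with promoter peaks in both libraries. Klf1, Nfe2 and Epor had 1.26, 1.98 and 1.45 kb of eligible intron, far below the median of 14.8 kb for the list.

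The other lists of blood cells lay between the red cell list and the background of 8.98%, and the endothelial and stromal list below it. The lists are small, and the neuron control list stood at 16.7%. Among genes with a promoter peak in both libraries, 6 of 25 B cell and 1 of 7 T cell genes held a shared site. So did 4 of 10 macrophage and dendritic, 3 of 10 megakaryocyte and 4 of 19 stem and progenitor genes. Over all protein-coding genes with such a promoter the share was 12.7%. Megakaryocyte genes had a site in both libraries in 6 of 18 (33.3%), led by Vwf, von Willebrand factor, with 4 sites (strongest 8.18 and 3.52), and Myh9, a non-muscle myosin heavy chain (4.94 and 1.77). B cell genes had one in 7 of 34 (20.6%): after Pou2f2 came Cd74, the invariant chain of MHC class II (5.47 and 2.17). A further 8 B cell genes had a near intronic peak in replicate 1 but no shared site. T cell genes had one in 5 of 24 (20.8%), led by Gata3 (4.21 and 2.64), at 1001 bases from the start, just inside the limit, and by Ccr7, a chemokine receptor of T cells in lymphoid tissue (2.82 and 2.37). Macrophage and dendritic genes also had one in 5 of 24, led by Spi1, which encodes PU.1 and was slightly higher in replicate 2 (4.41 and 4.63), and Zbtb46, a dendritic cell factor (2.69 and 2.39). Stem and progenitor genes had one in 4 of 22 (18.2%), led by Runx1 (7.42 and 5.74) and Stat5b (3.77 and 2.35). The endothelial and stromal list had none in 25, and 2 of its genes had a near intronic peak in replicate 1.

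The lists of liver, nerve and muscle genes, which serve as controls, had 1 or 2 genes each. Of the hepatocyte list, 1 of 12 genes held a shared site, Hnf4a, with 2 (strongest 3.41 and 2.72) and no promoter peak. Of 12 neuron genes, 2 held one (16.7%), Dlg4 (11.1 and 6.35) and Gad1 (4.91 and 2.80). Of 11 muscle genes Ryr1 did (5.69 and 3.12). Dlg4 and Gad1 had no promoter peak in replicate 2. Of 13 ubiquitous genes, all with promoter peaks in both libraries, Tfrc alone held one (1.75 and 1.37). Tfrc, the transferrin receptor, is on the red cell list as well.

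**Figure D5:**
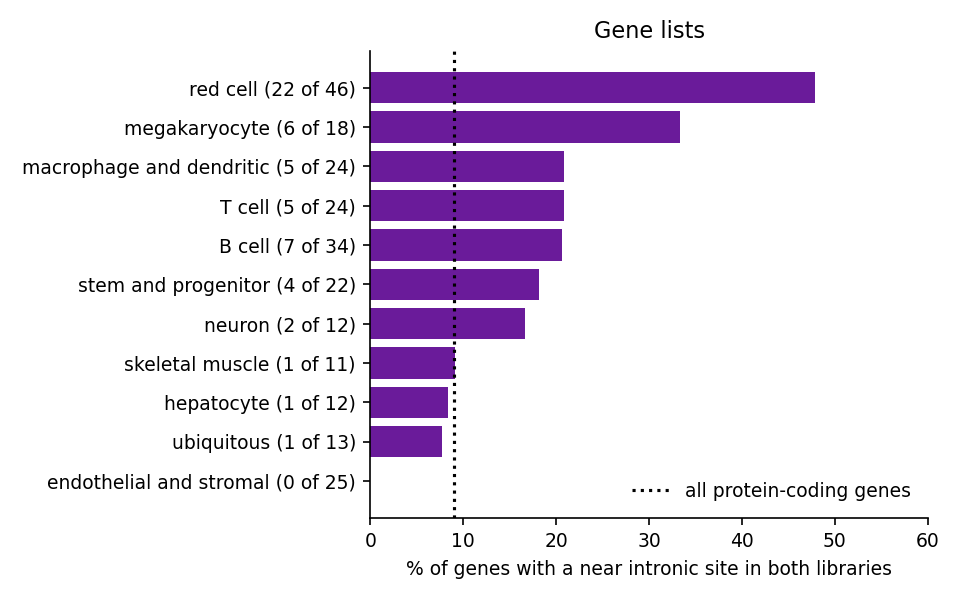
Share of the genes of each list that hold a near intronic site called in both libraries (x axis, %), counted over genes with intronic bases at this distance. Each bar is 1 list with its counts in brackets, and the dotted line is the share of all protein-coding genes (8.98%); the red cell bar stands at 47.8% and the endothelial and stromal bar at 0.

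By number of shared sites, Gm20388 came first: it spans 4435 kb of chromosome 8 and held 38, and its introns run past the starts of other genes such as Gm17786 and Abcb10. Fgfr2, a fibroblast growth factor receptor gene annotated over 2961 kb, held 12, and Maml3, a Notch coactivator gene of 419 kb, held 7. Sfi1, a gene of 61.6 kb for a centrosome protein, held 14, of which 42.9% were at least 50% repeat, with a strongest site of 2.91 in replicate 1 and 4.29 in replicate 2. The long non-coding RNA gene Gm26745 held 11, Myo18a 6 and the transcription factor gene Nfic 6. E2f2, a gene of 23.7 kb, held 5. The uncharacterised gene 3110082I17Rik and the antisense gene Gm16191 also held 5 each.

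At the extremes of the ratio, sites higher in replicate 1 were mostly outside repeats and those higher in replicate 2 mostly in them. Plekhm3 (2.98 and 0.634, log2 ratio 2.23), Slit1 (4.99 and 1.09, 2.19), Epc2 (2.78 and 0.683, 2.02), an intron of Gm20388 near Abcb10 (4.76 and 1.19, 2.00) and Tpm4 (2.59 and 0.675, 1.94) were at most 30.4% repeat. Slit1 encodes an axon guidance protein, Epc2 a chromatin protein and Tpm4 a tropomyosin. In the other direction were a site of the non-coding gene Gm45524 (1.04 and 2.96, log2 ratio -1.51), 3 sites of Tmem267 (-1.46, -1.37 and -1.06) and 1 of Sfi1 (1.33 and 2.96, -1.15). The Gm45524 site was 100% repeat and the Sfi1 site 91.3%, and those of Tmem267 were between 22.3% and 67.2%.

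The strongest near intronic peaks of replicate 1 with no peak in either list of replicate 2 lay in Tbcd, a tubulin folding cofactor gene (3.73), Ttc7 (3.64), Akna with its antisense gene Aknaos (3.23), Nenf (3.09) and Mtss1 (3.08). The deposited false discovery rates nevertheless reached 4.43e-26 at the Ttc7 peak and 2.07e-10 at the Nenf peak in replicate 2. In replicate 2, 3 of the 5 strongest lay on the X chromosome, in Gm21887 (3.79 and 2.64) and Mid1 (2.38), with no base under 0.05 in replicate 1. The others were in Trim17 (2.41) and C1qtnf9 (1.59), where false discovery rates of replicate 1 reached 1.20e-12 and 8.18e-14. The Trim17 peak (chr11:58960281-58960456) stood close to a shared site (chr11:58959981-58960200, signal 8.38 and 3.53). Of the 4856 near intronic peaks of replicate 1 with no overlapping peak in replicate 2, 1932 (39.8%) covered a base under 0.05 there. The matching share over all peaks is not given here, so this value cannot be read as particular to near intronic peaks.

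The values on both sides of the distance limits were as follows. Intronic peaks at 901 to 1000 bases numbered 233 in replicate 1 and 95 in replicate 2, with a median signal of 1.15 and 1.25, and those at 1001 to 1100 bases numbered 241 and 103, with 1.21 and 1.49. The shares called in the other library were 35.2% and 84.2% just below this limit and 43.2% and 91.3% just above it. At the outer limit there were 181 and 72 at 9501 to 10000 bases (1.12 and 1.2) and 197 and 71 at 10001 to 10500 bases (1.07 and 1.59).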

How the data were processed

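DNase-seq peaks, footprints and false discovery rates of 2 spleen libraries were used as deposited by the authors, aligned to mm10 per the labels. The aligner, both callers and the read depth were not given in the sources used here, nor was how reads of the second parental strain were handled. The peak files deposited by the authors carry 1 signal per peak (scale not stated), which was used to describe and rank peaks. The false discovery rates deposited by the authors are a p-value type of unit, listed under 0.05. The footprint score in the deposited files was constant at 0.01, so footprints were used by position. Of each pair of deposited lists the smaller, by total bases, was used. Every peak of the 21 chromosomes used was classed by its nearer edge against GENCODE M21 with Python 3.11.15, numpy 2.4.6, pandas 2.3.3 and scipy 1.17.1. Peaks were called in both libraries at an overlap of at least 1 base. Letters were counted in the middle 150 bases and, as flanks, at 1000 bases to either side where no peak was called. Gene lists (263 entries in 11 lists, 1 unmatched) were counted over genes with eligible bases. The peak classes and distances, the largest overlaps and the letter searches were tested on simulated data, and the other steps were not.

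With 1 group no test was possible. The labels do not say that the replicates are independent animals of different litters, and both carry 1 donor entry. Sites and genes are not replicates. The genes named are the 10 strongest shared sites, the 2 genes per list with the strongest site, the 10 genes with the most sites, the 5 largest ratios each way and the 5 strongest sites of each library alone. Sequences are those of the strongest site per motif and of the red cell and B cell lists. Members, lists and rules were chosen with earlier results of these data known. Alternatives were midpoints, protein-coding genes, the larger lists, strongest peaks, repeat-poor peaks, overlap and motif window.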

Additional observations from a re-analysis of the deposited data

How the results depend on the processing

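No paired analysis was possible because the design has 1 group. Values that moved by more than the spread between the libraries follow, as means of both. With the strongest 50% of peaks in each library, near intronic peaks were 8.75% of peaks, their median signal was 2.38 and 99.3% held a footprint. Their density at 1 to 2 kb was 2.73 times that at 9 to 10 kb, and 62.1% lay in first introns. At this setting 30.4% of red cell genes held a site in both libraries, against 47.8% as reported. This is 1 value over both libraries with no spread, and the share over all protein-coding genes at this setting is not given here. With the larger lists the median signal was 0.867, 84.8% held a footprint, the density ratio was 1.88 and 59.6% lay in first introns. With both libraries limited to equally many peaks, the strongest, the values were 1.61 for median signal, 94.3% with a footprint and 59.96% in first introns. In windows of 100 bases the GATA letters stood in 5.97% of near intronic peaks. The share called in the other library differed so much between the libraries that their mean shows little. With equally many peaks it was 56.5% in replicate 1 and 70.2% in replicate 2, against 34.1% and 85.0% as reported. Over the other settings it ran from 32.2% to 38.1% and from 83.6% to 98.1%. Shares over all peaks are given for the reported setting alone, at 53.1% and 89.1%. The median log2 ratio ran from 0.38 to 0.45 over the settings run for it and has no spread between libraries to be read against. The 7 settings for the red cell share were chosen after seeing the data. With 2 libraries the spread is itself poorly known, and without a read depth no counting interval can be given for signal. The B6CASTF1/J genome differs from the mm10 reference, and its effect on peaks was not tested.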

Other observations

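Near intronic peaks also stood in runs, here at least 5 with gaps of at most 2 kb, a limit chosen after the data were seen. Replicate 1 had 18 runs with 115 near intronic peaks. Several lay in genes of transcription regulators. Zfpm1 had a run of 7 with signals from 0.923 to 5.37, Mef2d, a MADS-box factor gene, 7 from 0.638 to 2.98, Bcl6, the repressor of germinal centre B cells, 6 from 0.974 to 4.46, and Bcor, a corepressor partner of BCL6, 6 from 1.08 to 1.75. The longest run was at Grk2, a kinase of G protein-coupled receptors, with 15 from 0.252 to 5.60. Of the near intronic peaks in runs of replicate 1, 77.4% held a footprint and 22.6% were called in replicate 2. Outside runs the shares were higher, at 93.3% and 34.3%, and 53.1% of all peaks of replicate 1 were called in replicate 2.

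Replicate 2 had 25 runs with 176 near intronic peaks, with a median signal of 0.228, against 1.36 for its near intronic peaks outside runs. The longest were 13 at Alg8, a glycosylation enzyme gene (0.146 to 0.350), 11 at AC132455.2 (0.252 to 0.935) and 10 at Grid1, a glutamate receptor gene (0.163 to 0.236). A footprint lay in 43.8% of those in runs and in 93.3% of the others. All these genes were chosen after their values were seen.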
